A study of Mus musculus with 43 samples.

Results

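The expression of 10 mouse genes whose products move drugs and other foreign compounds out of cells, or modify them chemically, was followed through colon organoids and fibroblasts. The genes were chosen by name, and they are 10 of the 52636 genes in each of the deposited tables. Abcb1a, Abcb1b, Abcc2, Abcc3 and Abcg2 encode efflux transporters, Cyp2c55, Cyp3a13 and Cyp1a1 encode cytochromes P450, Akr1c19 encodes an aldo-keto reductase, and Nr1i2 encodes the pregnane X receptor. Bulk RNA sequencing was available for 24 libraries of colon organoids and 19 libraries of colon fibroblasts.

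The organoids were grown from adult mice of about 2 months that all carried the Vil-cre/ERT2 transgene, a tamoxifen-inducible Cre recombinase driven by the villin promoter in intestinal epithelium, and all had received tamoxifen. Colonoids had wild-type Apc (lines M41, M40 and M1, all from males). Tumoroids came from Apc flox/flox mice and had lost Apc function (line F11 from a female, lines M3 and M14 from males), so sex is not balanced between the genotypes. Each line was grown for 6 days with DMSO vehicle (Ve), 4 µM regorafenib (R4), 8 µM regorafenib (R8) or 1 µM 5-fluorouracil (5-FU), which gives 3 lines in each of 8 groups. Regorafenib is an inhibitor of several kinases used against colorectal cancer, and 5-FU is an antimetabolite. Wild-type C57BL/6 colon fibroblasts (lines M3, M3(2), M1(2) and M11) were grown for 7 days with vehicle, 4 µM or 10 µM regorafenib (R4, R10), 1 µM autogramin-2 (A1), an autophagy inhibitor that binds Gramd1a, or 4 µM regorafenib with autogramin-2 (R4A1). Each fibroblast group held 4 lines except R10, which lacked M11. The tumoroid line M3 and the fibroblast line M3 are different cultures. The comparisons address what regorafenib does to each genotype and each cell type, with 5-FU as another anticancer drug in the organoids.

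ABC transporters use ATP to pump their substrates across the membrane. Abcb1a and Abcb1b are the mouse P-glycoproteins and Abcg2 is the breast cancer resistance protein, which in gut epithelium pump from the cell into the lumen. Abcc2 sits at the apical membrane and Abcc3 at the basolateral membrane, and both carry conjugated compounds. Cytochromes P450 oxidise foreign compounds, reductases such as Akr1c19 reduce carbonyl groups, and transferases then attach a polar group. The pregnane X receptor and the aryl hydrocarbon receptor sense foreign ligands and switch on many of these genes, Cyp1a1 being the classical target of the aryl hydrocarbon receptor.

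The 250 bases before the RefSeq transcription start (GRCm38.p6) are printed for the 4 members whose levels differed most between groups, so that the sequence can be read beside the values. They lie at chr19:39006769-39007018 for Cyp2c55, chr13:4233490-4233739 for Akr1c19, chr5:8566841-8567090 for Abcb1a and chr9:57697363-57697612 for Cyp1a1, all on the plus strand, and run 5′ to 3′ up to the base before the start. Capitals mark matches, on either strand, to GCGTG (the core read by the aryl hydrocarbon receptor with its partner Arnt), AGTTCA and AGGTCA (motifs read by nuclear receptors such as the pregnane X receptor) and TATAAA (the TATA box). None of these motifs overlaps another in the printed sequences.
Cyp2c55: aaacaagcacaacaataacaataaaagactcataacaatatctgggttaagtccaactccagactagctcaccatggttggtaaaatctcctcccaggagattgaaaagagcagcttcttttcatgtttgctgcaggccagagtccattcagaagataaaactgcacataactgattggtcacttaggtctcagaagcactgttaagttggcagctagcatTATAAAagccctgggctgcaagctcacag
Akr1c19: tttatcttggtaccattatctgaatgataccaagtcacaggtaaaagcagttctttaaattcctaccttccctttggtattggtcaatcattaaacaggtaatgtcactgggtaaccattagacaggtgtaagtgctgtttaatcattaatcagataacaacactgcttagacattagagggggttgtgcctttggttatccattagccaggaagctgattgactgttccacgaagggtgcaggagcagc
Abcb1a: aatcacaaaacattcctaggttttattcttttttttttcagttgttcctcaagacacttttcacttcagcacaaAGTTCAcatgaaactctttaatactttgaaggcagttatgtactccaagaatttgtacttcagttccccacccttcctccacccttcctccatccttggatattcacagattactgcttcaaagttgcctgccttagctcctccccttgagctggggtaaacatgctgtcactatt
Cyp1a1: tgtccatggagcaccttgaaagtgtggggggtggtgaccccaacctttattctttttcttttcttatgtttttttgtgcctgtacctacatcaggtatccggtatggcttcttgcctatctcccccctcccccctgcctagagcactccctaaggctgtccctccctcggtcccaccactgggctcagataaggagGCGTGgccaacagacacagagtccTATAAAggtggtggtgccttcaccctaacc

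The Cyp1a1 sequence held GCGTG 54 bases and TATAAA 30 bases before the start. The Cyp2c55 sequence held TATAAA 29 bases before the start, the Abcb1a sequence held AGTTCA 176 bases before it, and the Akr1c19 sequence held none of the 4 motifs. The Abcb1a sequence ends at base 8567090, inside the gene Rundc3b and far upstream of the GENCODE start of Abcb1a at 8660077. Over 32851 RefSeq promoters of the same length, 28.2% held GCGTG, 11.8% held AGTTCA, 14.0% held AGGTCA and 12.4% held TATAAA, so each motif is common. RefSeq promoters were found for 9 of the 10 members, all but Abcc3.

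By GENCODE M21 (GRCm38), Abcb1a (ENSMUSG00000040584) spans bases 8660077 to 8748575 of chromosome 5 on the plus strand, and Abcb1b (ENSMUSG00000028970) follows it on the same strand at 8798147 to 8866315. Cyp3a13 (ENSMUSG00000029727) lies on the minus strand of chromosome 5 at 137892932 to 137921619, Abcg2 (ENSMUSG00000029802) on the plus strand of chromosome 6 at 58584523 to 58695676, and Cyp1a1 (ENSMUSG00000032315) on the plus strand of chromosome 9 at 57687928 to 57703824. Abcc3 (ENSMUSG00000020865) lies on the minus strand of chromosome 11 at 94343295 to 94392997, Akr1c19 (ENSMUSG00000071551) on the plus strand of chromosome 13 at 4228700 to 4252843, and Nr1i2 (ENSMUSG00000022809) on the minus strand of chromosome 16 at 38248323 to 38294824. Cyp2c55 (ENSMUSG00000025002) and Abcc2 (ENSMUSG00000025194) are both on the plus strand of chromosome 19, at 39007019 to 39042693 and 43782192 to 43840740. Near-identical stretches could share reads: 9.23% of the 100-base windows of Abcb1a exons occur in Abcb1b or Abcb4, and 6.04% of those of Abcb1b occur in Abcb1a, so the levels of this pair are somewhat uncertain. The share was 3.32% for Akr1c19, 1.41% for Cyp1a1 and 0 for the other members.

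Values are counts scaled to 20000000 reads per library (CP20M), so that 20 CP20M equal 1 CPM. Recovered depth was 512592 to 22368824 reads per organoid library (median 15697936) and 7949965 to 12825919 reads per fibroblast library (median 9039204). The shallowest library by far was colonoid line M41 under R4, in which 1 read is worth 39.0 CP20M and 3 reads, the limit that a count of 0 allows, are worth 117 CP20M. Intervals and limits of this kind cover counting error only. The organoids matched their labelled tissue: the summed epithelial markers were 106341 to 349165 CP20M and the summed fibroblast markers 12 to 123 CP20M, against 179 to 1535 and 110998 to 186156 CP20M in the fibroblast libraries. Among colonocyte markers, Aqp8 reached only 19 CP20M and Car4 only 10 CP20M in any organoid library. Apc itself was at 1990 to 4189 CP20M in vehicle colonoids and at 4932 to 5211 CP20M in vehicle tumoroids, and since only part of the gene is removed by Cre this count does not check the deletion. The titles of the 3 tumoroid 5-FU libraries call them colonoids, and they were placed by their genotype label and library name. In bulk RNA, fewer cells of a type and less RNA per cell cannot be told apart.

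Corrected for exon length, Abcc3 led the members in vehicle colonoids with 675 ± 268 CP20M per kb of exon (SD, n = 3), followed by Abcb1a with 391 ± 163, Akr1c19 with 228 ± 24.8, Cyp2c55 with 198 ± 149, Nr1i2 with 87.9 ± 50.1 and Cyp3a13 with 39.0 ± 14.2 CP20M per kb. Each of these neighbours overlapped the next. Abcb1b at 12.7 ± 3.27 and Abcg2 at 4.66 ± 0.86 CP20M per kb lay below them without overlap, and Cyp1a1 and Abcc2 were under 1 CP20M per kb. In vehicle tumoroids Abcc3 again led, at 591 ± 124 CP20M per kb, with no overlap with the next member. Abcb1a (38.8), Akr1c19 (31.8), Abcb1b (25.7), Nr1i2 (21.0), Cyp3a13 (20.5) and Abcg2 (9.36 CP20M per kb) followed, each overlapping its neighbour, and Cyp2c55 was at 0. Fibroblasts had another order, led by Abcg2 at 163 ± 49.9 CP20M per kb (n = 4) with no overlap with Abcb1b at 39.0, Abcc3 at 35.4 or Cyp1a1 at 24.4 CP20M per kb, while Akr1c19 and Cyp2c55 were at 0.212 and 2.51 CP20M per kb. The organoid and fibroblast tables were scaled separately, so levels across them were not tested.

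**Figure D1:**
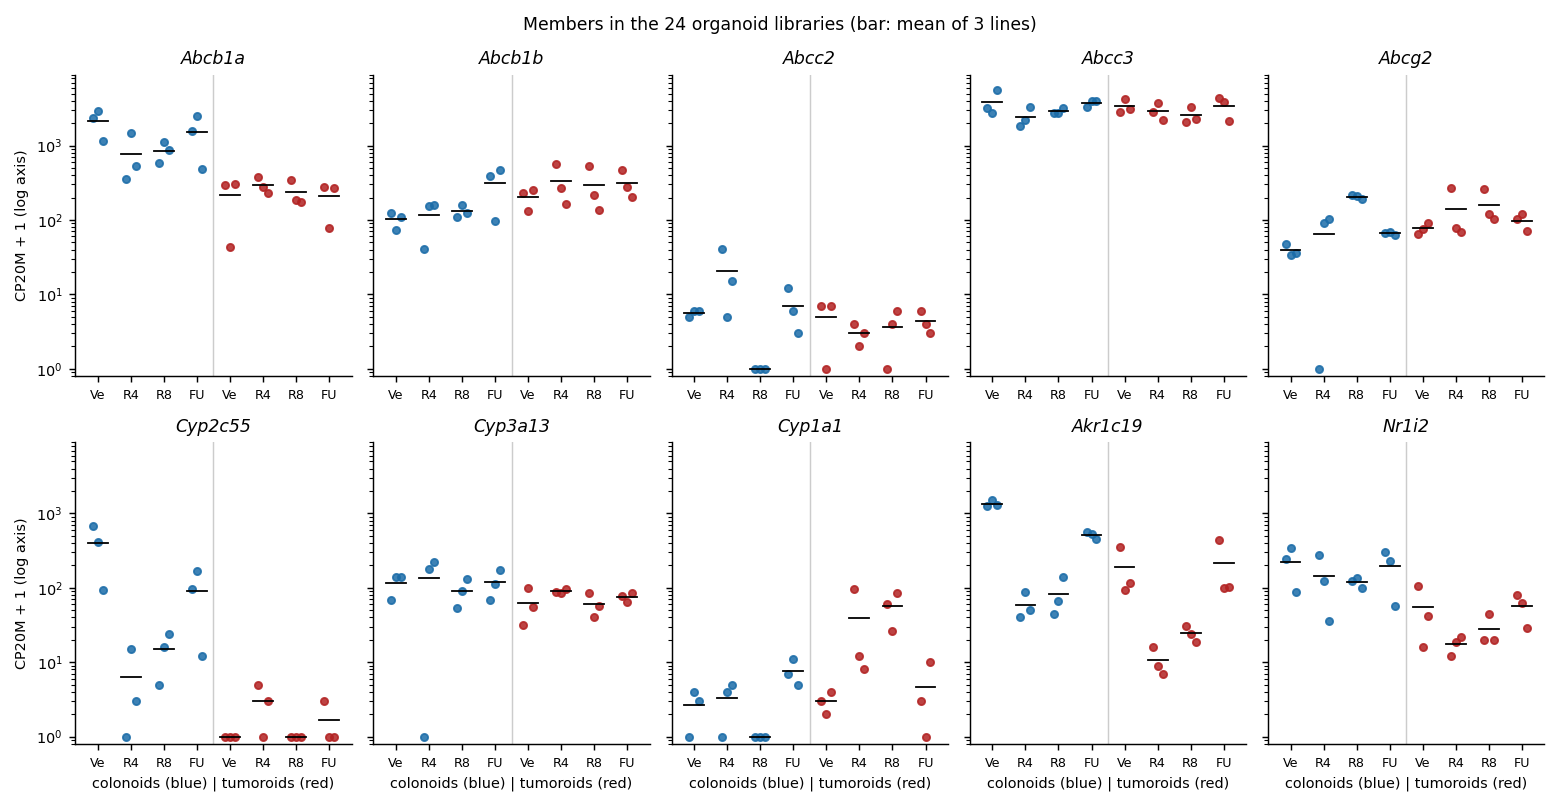
Level of each of the 10 members in the 24 organoid libraries, in CP20M on a log axis, by genotype and treatment, 1 point per line and a bar at the group mean. Akr1c19 sits at 1239 to 1509 CP20M in vehicle colonoids and at 40 to 138 CP20M under regorafenib, Cyp2c55 is at 0 in the 3 vehicle tumoroid libraries, and Cyp1a1 sits at 7 to 96 CP20M in regorafenib-treated tumoroids and at 10 CP20M or below in the other groups.

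A member entered the test across all genes if it reached 200 CP20M in at least 2 libraries. Of the 10 members, 7 passed in the organoids (Abcc2, Cyp3a13 and Cyp1a1 did not) and 4 passed in the fibroblasts (Abcb1b, Abcc3, Abcg2 and Cyp1a1). In the organoids Cyp2c55 passed only through 2 vehicle colonoid libraries and Abcg2 only through 4 regorafenib-treated libraries. Nr1i2 passed only through colonoid libraries, since it was at most at 105 CP20M in the tumoroids. A difference was thus built into the passing of Cyp2c55, Abcg2 and Nr1i2. Tests are limma on log2(CP20M + 20), in which fold changes of low genes are understated, with Benjamini-Hochberg adjustment over all genes tested. A gene is called changed where its adjusted p is under 0.05 and the change is at least 1.5-fold in either direction.

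Without drug, tumoroids had less Abcb1a, Cyp2c55 and Akr1c19 than colonoids. These were 3 of the 7 members tested, all lower, where 2.06% of 11562 genes were called and 1.09% were called lower. Cyp2c55 entered the test only through vehicle colonoid libraries, so for it a difference in this direction was built in. Abcb1a was at 2343 (M41), 2917 (M40) and 1163 CP20M (M1) in vehicle colonoids and at 290 (F11), 43 (M3) and 305 CP20M (M14) in vehicle tumoroids. The groups did not overlap, and the difference was −3.45 ± 0.66 on the log2 scale (SE, limma adjusted p = 0.0103). Abcb1b, the paralog next to it, was at 122, 72 and 110 CP20M in the same colonoids and at 230, 133 and 252 CP20M in the same tumoroids. All 3 tumoroid values of Abcb1b were above the colonoid values, but the log2 difference of 0.87 ± 0.56 did not pass (limma adjusted p = 0.476).

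Cyp2c55, a P450 of the large intestine that acts on arachidonic acid among other substrates, was at 686, 410 and 92 CP20M in vehicle colonoids M41, M40 and M1 and had no read in the 3 vehicle tumoroid libraries. Over the group, 635 reads stood against 0, so with a limit of 3 reads over the group the tumoroid level was at least 299-fold lower, taking the colonoid reads as counted. The exact 95% counting interval of the ratio, which takes in the error of both counts, reached down to 242-fold. The fitted log2 difference of −4.02 ± 0.67 (limma adjusted p = 0.00648) depends on the added constant of 20. Akr1c19 was at 1239, 1509 and 1278 CP20M in vehicle colonoids and at 354, 93 and 115 CP20M in vehicle tumoroids, again with no overlap, and fell by 2.92 ± 0.48 on the log2 scale (limma adjusted p = 0.00648).

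Nr1i2, the receptor, was at 246, 340 and 87 CP20M in vehicle colonoids and at 105, 15 and 41 CP20M in vehicle tumoroids. Colonoid M1 lay below tumoroid F11, and the log2 difference of −1.75 ± 0.62 did not pass (limma adjusted p = 0.147), although it did without line M1 (−2.26, adjusted p = 0.0268). Nr1i2 entered the test only through colonoid libraries, so a difference in this direction was built in. Abcc3 (−0.14 ± 0.30, limma adjusted p = 0.880) and Abcg2 (0.73 ± 0.54, limma adjusted p = 0.553) did not pass either. All 3 genotype calls rest on 3 lines against 3: without colonoid line M40 the adjusted p became 0.0760 for Abcb1a and 0.0682 for Akr1c19 and Cyp2c55 was no longer tested, and without tumoroid line M3 the adjusted p became 0.126 for Abcb1a and 0.0795 for both Cyp2c55 and Akr1c19.

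Markers of differentiated cells moved the same way. The summed goblet cell markers were 12719 (M41), 19050 (M40) and 1572 CP20M (M1) in vehicle colonoids and 64 to 419 CP20M over all 12 tumoroid libraries, and line M1, lowest for these markers, was also lowest for Cyp2c55. Of the 6 goblet markers tested 4 fell in tumoroids, among them Clca1 (−6.24 ± 0.93, limma adjusted p = 0.00281), while the calls of Muc2, Fcgbp and Agr2 were lost without any 1 of 5 lines (adjusted p up to 0.304). The summed absorptive colonocyte markers were 11366 to 16962 CP20M in vehicle colonoids and 1431 to 5774 CP20M in vehicle tumoroids. The part of these cell types in the member differences was not tested.

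Akr1c19 fell under regorafenib in both genotypes. Taking R4 and R8 together against vehicle, Akr1c19 and Cyp2c55 were the 2 of the 7 members tested that were called over both genotypes, both lower, where 16.9% of all genes were called and 9.2% were called lower. The call of Cyp2c55 comes from the colonoids, since it had no read in vehicle tumoroids and could not fall there. As Cyp2c55 was tested only because of vehicle colonoid libraries, a fall was built into its test. These contrasts share their vehicle libraries with the genotype comparison. Akr1c19 under R4 was at 40, 86 and 50 CP20M in colonoids M41, M40 and M1 and at 15, 8 and 6 CP20M in tumoroids F11, M3 and M14. The 40 of M41 is 1 read of the shallow library, where 1 read is worth 39.0 CP20M. Under R8 Akr1c19 was at 44, 66 and 138 CP20M in the colonoids and at 30, 23 and 18 CP20M in the tumoroids. Every regorafenib value lay below every vehicle value of its own genotype, and all 6 lines fell. The log2 change was −3.16 ± 0.29 over both genotypes (limma adjusted p = 6.51e-07), −3.99 ± 0.41 in colonoids (1.19e-05) and −2.32 ± 0.41 in tumoroids (0.00182).

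Akr1c19 was the only one of the 7 members tested that was called in tumoroids, where 7.78% of genes were called and 3.27% were called lower. The number of genes called in tumoroids was 900, and 1422 with the line as a block. The fitted fall of Akr1c19 was larger in colonoids by 1.67 ± 0.58 on the log2 scale, but the test of that difference did not pass over all genes (limma adjusted p = 0.997). R8 and R4 did not differ detectably for Akr1c19 (0.44 ± 0.34, limma adjusted p = 0.492).

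Cyp2c55 fell in colonoids. From 686, 410 and 92 CP20M under vehicle it went to 0, 14 and 2 CP20M under R4 and to 4, 15 and 23 CP20M under R8 in lines M41, M40 and M1. The 0 in M41 comes from the shallow library, where it allows up to 117 CP20M. The log2 change was −3.50 ± 0.58 (limma adjusted p = 0.000459), 1 of 2 members called in colonoids with Akr1c19, where 14.6% of genes were called and 8.9% were called lower. Because only vehicle colonoid libraries brought Cyp2c55 into the test, a fall was built in. In tumoroids Cyp2c55 stayed between 0 and 4 CP20M under regorafenib, and with 0 reads under vehicle no fall could be measured there. The difference between genotypes of 3.57 ± 0.82 (limma adjusted p = 0.626) has that floor on its tumoroid side, and it passed without line M1 (4.39, adjusted p = 0.0331). Over both genotypes the change was −1.72 ± 0.41 (limma adjusted p = 0.00383), but edgeR gave −1.86 with an adjusted p of 1.00. Without line M41 or line M40, Cyp2c55 missed the level needed for testing.

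Abcg2 was higher under 8 µM regorafenib than under vehicle in each line. R8 alone was not tested against vehicle, and whether R4 and R8 together passed depended on the treatment of the lines and of the shallow library. In colonoids it was at 46 (M41), 33 (M40) and 35 CP20M (M1) under vehicle, at 0, 89 and 103 CP20M under R4 and at 214, 207 and 188 CP20M under R8. All 3 R8 values were above all vehicle values. In tumoroids F11, M3 and M14 it was at 64, 75 and 90 CP20M under vehicle, at 270, 77 and 68 CP20M under R4 and at 257, 121 and 101 CP20M under R8, so line F11 stood above the others under drug. R8 exceeded vehicle in 6 of 6 lines and R4 in 4 of 6. The log2 difference of R4 and R8 together over both genotypes was 0.85 ± 0.33, which did not pass (limma adjusted p = 0.0588).

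The same comparison of Abcg2 passed with the line as a block (0.85, limma adjusted p = 0.0402), without the shallow library (1.07, adjusted p = 0.00157) and with edgeR on the recovered reads (1.41, adjusted p = 0.00306). Since Abcg2 entered these tests only through regorafenib-treated libraries, a difference in this direction was built into them. The 0 of Abcg2 in that shallow library is below its 3-read limit of 117 CP20M and so cannot be told from the vehicle level. In colonoids alone the log2 difference was 1.05 ± 0.47 (limma adjusted p = 0.125), and 1.48 without the shallow library (adjusted p = 0.00380). In tumoroids alone it was 0.65 ± 0.47 (limma adjusted p = 0.448) and only 0.10 without line F11, and the difference between genotypes was −0.40 ± 0.66 (adjusted p = 0.997). R8 exceeded R4 in 5 of 6 lines, by 1.05 ± 0.38 on the log2 scale (limma adjusted p = 0.170), and by 0.63 without the shallow library.

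The summed macrophage markers were also higher under R8 in 6 of 6 lines, at 596 to 3247 CP20M against 427 to 573 CP20M under vehicle. Of these 7 markers 2 were tested, Cd68, which encodes a lysosomal protein, and Csf1r. Cd68 rose over both genotypes (1.60 ± 0.39, limma adjusted p = 0.00494) and from R4 to R8 (2.47 ± 0.46, 0.0155, a call lost without any 1 of 4 lines, adjusted p up to 0.127). The defining markers Ptprc, C1qa, C1qb and Lyz2 were at most at 7 CP20M in any organoid library, and Adgre1 was at most at 40 CP20M, 1 read of the shallow library.

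Abcb1a was lower under regorafenib in 3 of 3 colonoid lines and higher in 2 of 3 tumoroid lines. Under R4 it was at 352, 1451 and 530 CP20M in colonoids M41, M40 and M1 and under R8 at 574, 1126 and 870 CP20M. Only M40 under R4 overlapped the vehicle range, and the log2 difference of −1.42 ± 0.57 did not pass without a block (limma adjusted p = 0.0912) but passed with the line as a block (−1.42, adjusted p = 0.0184). In tumoroids F11, M3 and M14 Abcb1a was at 377, 276 and 226 CP20M under R4 and at 348, 185 and 173 CP20M under R8, a log2 difference of 0.56 ± 0.57 (limma adjusted p = 0.626) that was −0.14 without line M3. The genotypes differed in this response by 1.99 ± 0.81 (limma adjusted p = 0.997). Treated colonoids and treated tumoroids overlapped only through the shallow library, at 352 CP20M, and tumoroid F11 under R4, at 377 CP20M.

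Abcb1b reached 569 and 522 CP20M in tumoroid F11 under R4 and R8, from 230 CP20M under vehicle. Elsewhere under regorafenib it was at 40 to 157 CP20M in colonoids, the 40 being 1 read of the shallow library, and at 135 to 271 CP20M in tumoroids M3 and M14. Its log2 difference was 0.30 ± 0.34 over both genotypes (limma adjusted p = 0.551). F11 was also the tumoroid line with the highest Abcg2 under drug. It stood apart in the summed stem and cycling cell markers too, which were 32127 CP20M under vehicle, 8276 under R4 and 5776 CP20M under R8. In M3 and M14 they were 2451 and 3284 CP20M under vehicle and higher, at 4495 to 7361 CP20M, under regorafenib. The part of these markers in the Abcb1b and Abcg2 values was not tested.

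Abcc3, the most abundant member per kb, was at 1834 to 3316 CP20M in treated colonoids and at 2043 to 3691 CP20M in treated tumoroids. The mean of R4 and R8 lay below vehicle in 6 of 6 lines, but the log2 difference was small at −0.40 ± 0.18 and did not pass (limma adjusted p = 0.102). Nr1i2 was at 35 to 274 CP20M in treated colonoids and at 11 to 44 CP20M in treated tumoroids. It was lower in 5 of 6 lines, and the log2 difference of −0.67 ± 0.38 did not pass (limma adjusted p = 0.198), except without the shallow library and with the line as a block (−0.76, adjusted p = 0.0255). For comparison, the median log2 difference over all genes was −0.11.

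**Figure D2:**
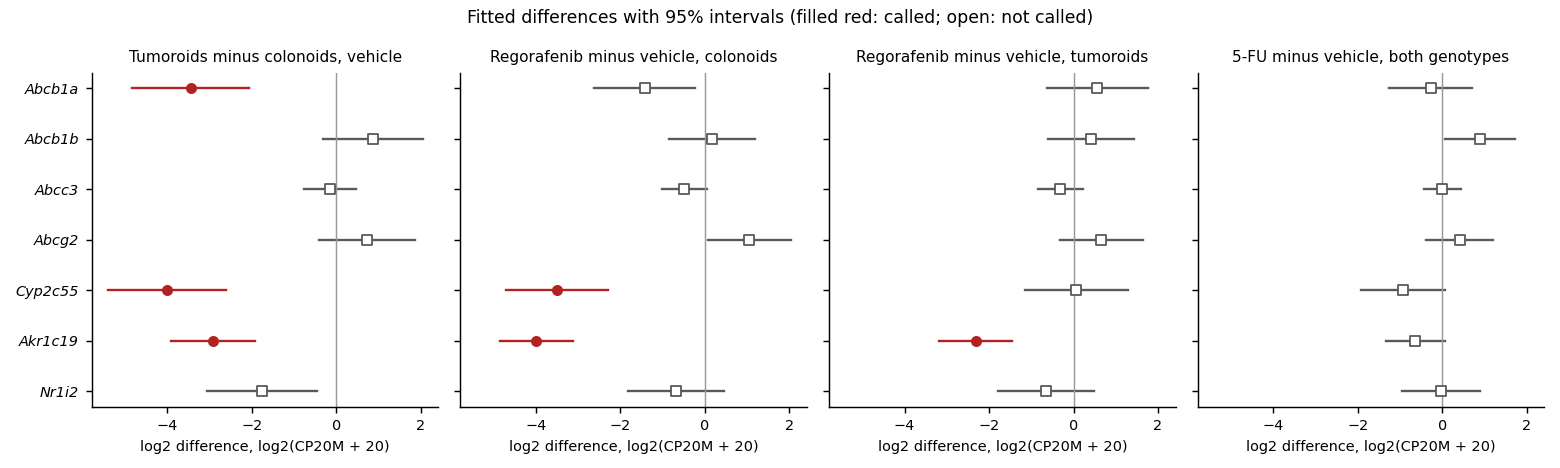
Log2 differences with their 95% intervals for the 7 members tested in the organoids. The panels are genotype under vehicle, regorafenib in colonoids, regorafenib in tumoroids and 5-FU over both genotypes. Akr1c19 lies left of 0 in all 4 panels, at −2.92, −3.99, −2.32 and −0.63, and Abcg2 lies right of 0 in each.

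**Figure D3:**
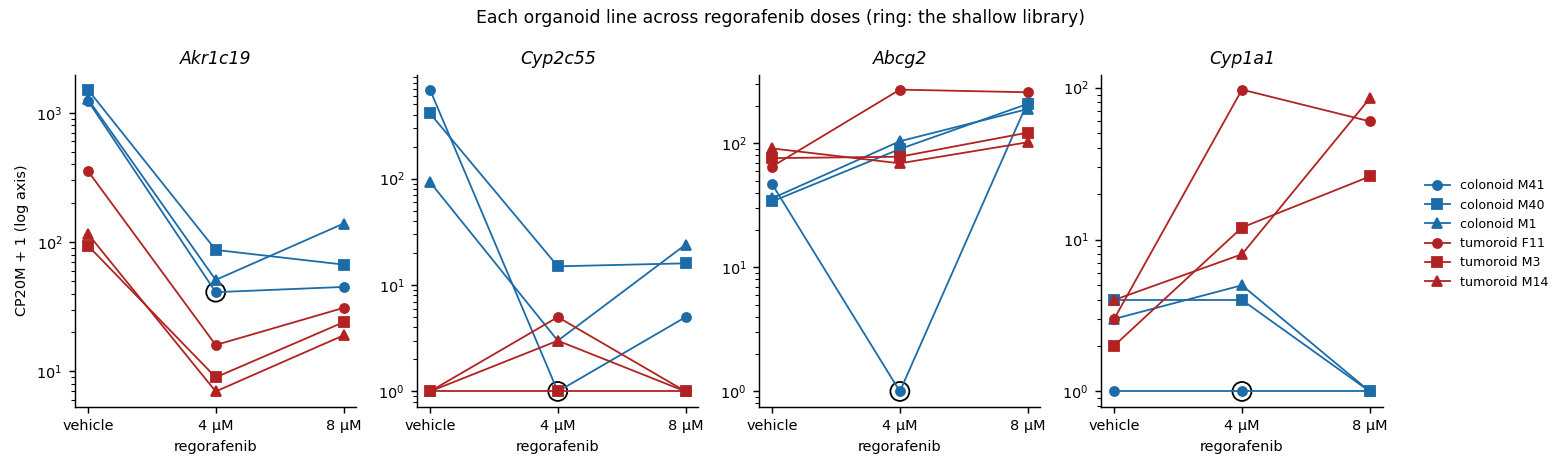
Level of Akr1c19, Cyp2c55, Abcg2 and Cyp1a1 in each of the 6 organoid lines under vehicle, R4 and R8, in CP20M on a log axis. A ring marks the shallow library, colonoid M41 under R4. Akr1c19 is below vehicle in all 6 lines at both doses. Abcg2 is above vehicle in all 6 lines at R8, and Cyp1a1 in the 3 tumoroid lines at both doses.

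Cyp1a1 was at most at 10 CP20M in the organoid libraries other than those of regorafenib-treated tumoroids. It was at 0, 3 and 2 CP20M in vehicle colonoids M41, M40 and M1, at 0, 3 and 4 CP20M under R4, and at 0 in all 3 lines under R8. The 0 of M41 under R4 comes from the shallow library. It allows up to 117 CP20M there, more than the highest treated tumoroid value of 96 CP20M. In tumoroids F11, M3 and M14 it was at 2, 1 and 3 CP20M under vehicle, at 96, 11 and 7 CP20M under R4 and at 59, 25 and 84 CP20M under R8. Each treated tumoroid library was above each vehicle tumoroid library. Summed over lines, 224 reads under regorafenib stood against 4 under vehicle, a ratio per read of 29.0 with a 95% counting interval of 11.2 to 107. In colonoids 4 reads stood against 3, a ratio of 0.937 with an interval of 0.159 to 6.40. Under 5-FU Cyp1a1 was at 6, 10 and 4 CP20M in colonoids M41, M40 and M1, higher than vehicle in 3 of 3 lines, and at 2, 0 and 9 CP20M in tumoroids F11, M3 and M14, so the lowest treated tumoroid library, M14 under R4, lay within the 5-FU values. In colonoids 14 reads under 5-FU stood against 3, a ratio of 4.06 with an interval of 1.13 to 22.0, and in tumoroids 10 stood against 4, a ratio of 2.47 with an interval of 0.712 to 10.8. These intervals compare the libraries and not the conditions.

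Cyp1a1 did not reach the level for the test across genes, so the 6 lines were compared by an exact two-sided sign-flip permutation test, whose smallest p is 0.03125. The mean log2 difference was 0.74 ± 0.94 (SD, n = 6 lines, exact p = 0.25, adjusted over the 3 members below the level 0.75), with the 3 tumoroid lines higher and 1 colonoid line lower. Here R4 and R8 were averaged before taking the log, and in the comparison of genotypes that follows after taking it. The difference between genotypes in this response was 1.42 on the log2 scale (−0.04 in colonoids and 1.39 in tumoroids), at the smallest p that relabelling 3 lines against 3 can give (exact permutation p = 0.1). With no level needed, limma over 38121 genes gave a change of 1.39 ± 0.32 in tumoroids (adjusted p = 0.0297) and a genotype difference of 1.42 that did not pass (adjusted p = 0.740). These comparisons take the 0 of colonoid M41 under R4 as measured. Of the Cyp1a1 windows 1.41% occur in Cyp1a2.

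Cyp3a13, the mouse gut member of the P450 family that handles many drugs, stayed between 0 and 223 CP20M in the organoids and differed by 0.04 on the log2 scale under regorafenib (exact permutation p = 0.938). Its only 0 comes from the shallow library, where it allows up to 117 CP20M, and the test takes that 0 as measured. Abcc2, a transporter of conjugates that is abundant in liver, stayed at 0 to 14 CP20M in all organoid libraries but the shallow one, where 1 read gave 40 CP20M, and differed by 0.06 (exact permutation p = 0.844). Both were higher in 3 lines and lower in 3. Summed hepatocyte markers were 0 to 106 CP20M in the organoids.

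Some markers of differentiated and stem cells moved with Akr1c19 and Cyp2c55. The summed absorptive colonocyte markers went from 11366 to 16962 CP20M in vehicle colonoids to 254 to 3407 CP20M under R4 and 64 to 1059 CP20M under R8, and from 1431 to 5774 CP20M in vehicle tumoroids to 174 to 227 and 133 to 277 CP20M. This sum is mostly Car1, a colonocyte carbonic anhydrase at up to 15957 CP20M, with Krt20 and Slc26a3 next (at most 2860 and 360 CP20M), while the other 6 of the 9 markers never exceeded 40 CP20M. Only Car1 and Krt20 were tested. Car1 fell by 5.43 ± 0.69 in colonoids (limma adjusted p = 5.28e-05) and fell by 3.77 ± 0.69 in tumoroids (0.00209, and 0.0685 without M14), and Krt20 was not called in either genotype.

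Goblet markers fell in colonoids, with 6 of 6 tested called lower, among them Clca1 (−5.89 ± 0.80, limma adjusted p = 0.000103). In tumoroids, where they were low already, 0 of 6 were called by limma (median −0.35), and their sum in line M3 went from 64 CP20M under vehicle to 173 under R4 and 230 CP20M under R8. The stem cell factor Ascl2 fell in colonoids (−2.29 ± 0.46, limma adjusted p = 0.00199) and in tumoroids (−1.79 ± 0.46, 0.0175, a call lost without F11 or M14, adjusted p up to 0.252), the only one of 6 stem and cycling markers called in either.

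Under 5-FU, no colonocyte or goblet marker was called by limma over both genotypes. In colonoids M41, M40 and M1 the colonocyte sum was lower in each line, at 14716, 9479 and 6836 CP20M against 16962, 11366 and 13221 CP20M under vehicle. The goblet sum was lower in each line too, at 4549, 7126 and 129 CP20M against 12719, 19050 and 1572 CP20M. The part of these cell types in the member differences was not tested.

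Across 23 organoid libraries (all but the shallow one) and 11561 other genes, the gene whose log2 levels were most like those of Cyp2c55 was Clca1 (Pearson r = 0.959), followed by Tph1 (0.944). For Akr1c19 these were B3galt5 (0.95) and Golph3l (0.946), and for Nr1i2 Cds1 (0.935) and Pde3a (0.927). For Abcb1b they were Ptp4a3 (0.857) and Ddit4l (0.820), for Abcc3 B3gnt3 (0.850) and Tmem63a (0.755), and for Abcg2 Acox2 (0.868) and Gm21969 (0.843). These correlations describe libraries that share lines and treatments.

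Abcb1a was most like Gm42686 (r = 0.985) and Rundc3b (r = 0.971), both its neighbours on chromosome 5. Gm42686 lies on the opposite strand inside Abcb1a, at 8731661 to 8735768, and shares 553 exon bases with it. Whether reads were counted by strand is not given in the sources used here, so reads of the pair may not be separable. Gm42686 was at 126 to 322 CP20M in vehicle colonoids and 1 to 37 CP20M in vehicle tumoroids. Rundc3b (8490334 to 8622952, minus strand) ends 37.1 kb before the GENCODE start of Abcb1a, but the RefSeq start of Abcb1a lies inside it. It was at 248 to 603 CP20M in vehicle colonoids and at 38 to 126 CP20M in vehicle tumoroids.

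Over both genotypes together, none of the 7 members tested was called by limma under 5-FU. There 2.35% of genes were called, 272 in number and 584 with the line as a block. Neither genotype was tested alone under 5-FU, so a change in 1 genotype could be missed. Akr1c19 was at 563, 528 and 450 CP20M in 5-FU-treated colonoids M41, M40 and M1, below all 3 vehicle values but far above the regorafenib values. In tumoroids F11, M3 and M14 Akr1c19 was at 443, 100 and 102 CP20M, and the log2 difference over both genotypes was −0.63 ± 0.34 (limma adjusted p = 0.384). Cyp2c55 was at 96, 165 and 11 CP20M in 5-FU-treated colonoids, lower than vehicle in 3 of 3 lines, and at 0 to 2 CP20M in 5-FU-treated tumoroids. Its log2 difference over both genotypes was −0.92 ± 0.47 (limma adjusted p = 0.362), and Abcb1a gave −0.28 ± 0.47 (adjusted p = 0.875). Abcb1b was higher in 5 of 6 lines, at 386, 97 and 465 CP20M in colonoids and 467, 277 and 202 CP20M in tumoroids. Its log2 difference of 0.90 ± 0.40 did not pass (limma adjusted p = 0.270), except without the shallow library and with the line as a block (0.90, adjusted p = 0.0354).

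Between R8 and R4, no member was called by limma among the 7 tested, where 0.848% of genes were called (98 genes, and 387 with the line as a block). For the difference between genotypes in the regorafenib response, 0 of 11562 genes were called by limma at an adjusted p under 0.05, with 411 at an unadjusted p under 0.05, 0 by edgeR and 7 with the line as a block.

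Wider lists of drug-handling genes gave the setting. Under regorafenib over both genotypes, 9.2% of all genes were called lower and 16.9% in either direction. Of 13 efflux transporters 8 were tested and 0 changed under regorafenib over both genotypes by limma (median log2 difference 0.04), and of 18 uptake transporters 7 were tested, with Slco3a1 higher (2.28 ± 0.69, limma adjusted p = 0.0172) and the nucleoside transporter Slc29a1 lower (−0.89 ± 0.22, 0.00437). Of 37 cytochromes P450 with their reductase Por, 8 were tested and 3 fell (median −0.71): Cyp2d34 (−2.18 ± 0.48), Cyp2b10 (−2.0 ± 0.39) and Cyp2c55, which was tested only because of vehicle colonoid libraries. Of 48 reductases, dehydrogenases and esterases 26 were tested, with 2 higher and 3 lower (median 0.06). The 3 that fell were Akr1c19, the carbonyl reductase Cbr2 (−2.36 ± 0.42, limma adjusted p = 0.000337) and the aldehyde dehydrogenase Aldh1b1 (−1.45 ± 0.35, 0.00378). In Cbr2 the treated colonoid libraries were at 0 to 14 CP20M against 64 to 175 CP20M under vehicle.

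Of 47 conjugating enzymes 30 were tested, 13 fell and 2 rose (median −0.57). The glutathione transferase Gstm1 fell by 1.81 ± 0.42 (limma adjusted p = 0.00314). Among the 13 that fell, 9 were Ugt1a genes, glucuronosyltransferases that share their last exons and had nearly equal values, so they may be 1 signal counted repeatedly. In colonoids alone 14 of these 30 genes fell and 2 rose, where 8.9% of all genes were called lower, and in tumoroids 0 were called by limma, where 3.27% were called lower. The colonoid and tumoroid responses of the list were not tested against each other, and no gene of it passed the test of that difference.

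Of 16 sensing receptors and partners 12 were tested under regorafenib over both genotypes (median −0.37), and among those that fell were the nuclear receptor Hnf4a (−1.48 ± 0.25, limma adjusted p = 0.000191), the oxidative stress factor Nfe2l2 (−0.76 ± 0.18, 0.00319) and Rxrb, a partner of nuclear receptors (−0.63 ± 0.09, 5.55e-05). Hnf4a was at 7476 to 13112 CP20M in vehicle colonoids and at 1794 to 4086 CP20M under either dose. Of 11 targets of the pregnane X receptor 7 were tested and 4 fell (median −1.31), where 9.2% of all genes were called lower. They were the bile acid carrier Slc10a2 (−2.12 ± 0.32, limma adjusted p = 7.88e-05), Cyp2b10, Cyp2c55 and Ugt1a1. For Cyp2c55, tested only because of vehicle colonoid libraries, a fall was built in. Of 8 targets of the aryl hydrocarbon receptor 4 were tested and 1 fell, Ugt1a6a (−1.32 ± 0.42, 0.0236), with a median of −0.58. Cyp1b1, another such target, fell in colonoids (−1.98 ± 0.58, limma adjusted p = 0.0235), a call lost without any 1 of the 3 colonoid lines (adjusted p up to 0.168). Over both genotypes, the calls of Slc29a1, Cyp2d34, Cyp2b10, Cbr2, Aldh1b1, Gstm1, Hnf4a, Nfe2l2 and Slc10a2 held under every alternative in which each was tested. Those of Ugt1a1 and Ugt1a6a (adjusted p up to 0.0765 and 0.0770) were lost with no level needed for testing and without some lines, that of Slco3a1 was lost without M40 or M1 (up to 0.0677), and Rxrb changed by less than 1.5-fold with TMM scaling (−0.56).

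Between genotypes under vehicle, calls in these lists were few and all lower in tumoroids. Besides Abcb1a, Cyp2c55 and Akr1c19 they were Akr1c13 (−1.73 ± 0.38, limma adjusted p = 0.0221), the sulfotransferase Sult1d1 (−3.27 ± 0.69, 0.0181), Mgst3 (−1.82 ± 0.39, 0.0208) and Slc10a2 (−3.20 ± 0.52, 0.00648). The first 3 of these calls were each lost without any 1 of at least 4 lines (adjusted p up to 0.185, 0.173 and 0.187), and that of Slc10a2 without tumoroid line M3 (0.0795). Under 5-FU the carboxylesterase Ces2e rose (1.64 ± 0.43, limma adjusted p = 0.0437), the only call of limma in the 8 lists and one lost without any 1 of 5 lines (adjusted p up to 0.294).

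In fibroblasts the members formed another set. Abcg2 was at 1652 (M3), 1555 (M3(2)), 1353 (M1(2)) and 745 CP20M (M11) under vehicle, against 33 to 90 CP20M in the 6 vehicle organoid libraries of the separately scaled table. Under R4 it was at 1458, 1436, 1381 and 837 CP20M in the same order of lines, under A1 at 1306, 1618, 1259 and 790 CP20M and under R4A1 at 1215, 1231, 1031 and 784 CP20M. Under R10 it was at 1045, 1096 and 1008 CP20M in M3, M3(2) and M1(2), lower than vehicle in 3 of 3 lines. M11 was lowest in each group that held it. The log2 difference for R10 was −0.27 ± 0.27 (limma adjusted p = 0.590), and M11, the lowest line, is missing from R10 but not from its control.

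None of the 4 members tested in fibroblasts was called by limma under R4 (1.02% of 11032 genes called, 113 genes, and 796 with the line as a block), R10 (7.33%, 809 genes, and 1519 with the block), A1 (0%, with 120 genes at an unadjusted p under 0.05 and 0 called by edgeR) or R4A1 (1.66%, 183 genes, and 771 with the block). Abcb1b was at 213, 425, 386 and 222 CP20M under vehicle in M3, M3(2), M1(2) and M11. It was at 197, 231 and 223 CP20M under R10 in the first 3 of these lines, lower in each. The log2 difference of −0.43 ± 0.37 did not pass (limma adjusted p = 0.518) but passed with the line as a block (−0.61, adjusted p = 0.0130). Abcc3 was at 201, 264, 158 and 183 CP20M under vehicle and at 142, 180, 130 and 105 CP20M under R4, lower in 4 of 4 lines, with a log2 difference of −0.48 ± 0.18 (limma adjusted p = 0.237).

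Cyp1a1 was at 41 (M3), 174 (M3(2)), 24 (M1(2)) and 33 CP20M (M11) in vehicle fibroblasts. Under R4 it was at 10, 410, 148 and 33 CP20M, which is lower in M3, higher in M3(2) and M1(2) and equal in M11. Under R10 it was at 13, 33 and 9 CP20M in M3, M3(2) and M1(2), lower in 3 of 3 lines, and under R4A1 at 5, 121, 19 and 14 CP20M, lower in 4 of 4. The log2 difference for R4 was 0.51 ± 0.84 (limma adjusted p = 0.860) and for R10 −0.97 ± 0.91 (adjusted p = 0.555), the latter passing with the line as a block (−1.24, adjusted p = 0.0384). Line M3(2), highest for Cyp1a1 in each group, was also highest for the summed endothelial markers, at 9596 CP20M under vehicle, 25819 under R4 and 6325 CP20M under R10, where the other lines were at 1136 to 2546, 1838 to 7390 and 1531 to 1773 CP20M. The part of endothelial cells in the Cyp1a1 and Abcg2 values was not tested. The summed macrophage markers were 1062 to 6022 CP20M under vehicle, 587 to 611 CP20M under R10 and 449 to 716 CP20M under R4A1, and their part was not tested either.

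**Figure D4:**
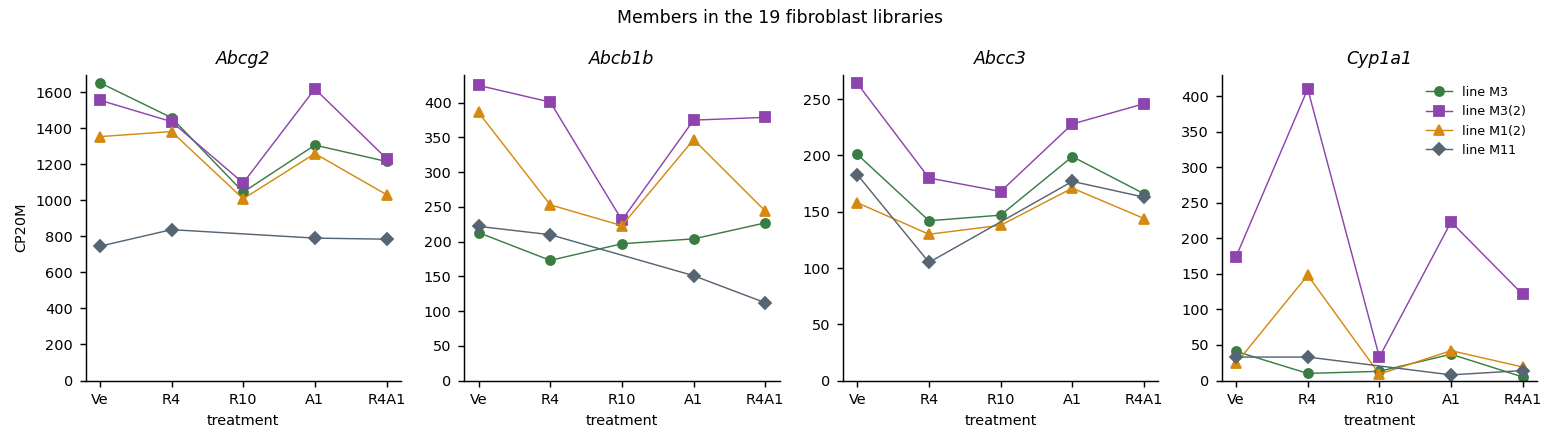
Level of Abcg2, Abcb1b, Abcc3 and Cyp1a1 in the 19 fibroblast libraries, in CP20M on a linear axis, by treatment, with 1 trace per line. Abcg2 lies at 745 to 1652 CP20M, and Cyp1a1 spans 5 to 410 CP20M with line M3(2) on top in each group.

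The remaining members were low in fibroblasts. Abcb1a was at 14 to 120 CP20M (median 40), Cyp3a13 at 0 to 42, Abcc2 at 0 to 13 and Nr1i2 at 0 to 8 CP20M. Among the wider lists under R10, the efflux transporters Abcc4 (−0.97 ± 0.18, limma adjusted p = 0.0021) and Abcc1 (−0.78 ± 0.22, 0.0268) fell, 2 of 6 tested, and Abcc4 also fell under R4 (−0.81 ± 0.17, 0.0184) and R4A1 (−0.69 ± 0.17, 0.0348). Of 5 targets of the aryl hydrocarbon receptor tested, 4 fell under R10: Cyp1b1 (−2.93 ± 0.60, limma adjusted p = 0.00402), the quinone reductase Nqo1 (−2.47 ± 0.63, 0.0149), Ugt1a6a (−1.33 ± 0.29, 0.00603) and Tiparp (−1.0 ± 0.26, 0.0175). Cyp1a1 was the one not called. Without line M1(2) the call of Cyp1b1 was lost (adjusted p = 0.0634), and without M1(2) or M3 those of Nqo1, Ugt1a6a and Tiparp (up to 0.197, 0.103 and 0.192). The R10 call of Abcc4 held under every alternative, whereas its R4 and R4A1 calls and the R10 call of Abcc1 were lost without M3, M3(2) or M1(2) (up to 0.217, 0.256 and 0.275). Cyp1b1 was at 1554 to 3759 CP20M under vehicle and at 121 to 499 CP20M under R10. Of 23 conjugating enzymes tested 9 fell and 1 rose under R10, where 7.33% of all genes were called. All 9 that fell were Ugt1a genes, which share exons and had nearly equal changes (−1.26 to −1.33), so they may be 1 signal, and the calls of Ugt1a1, Ugt1a2, Ugt1a6a, Ugt1a7c and Ugt1a8, the ones followed over the alternatives, were each lost without M3 or M1(2) (adjusted p up to 0.103). Nfe2l2 fell by 0.80 ± 0.10 (limma adjusted p = 8.18e-05).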

How the data were processed

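Per the labels and the study's methods, the authors trimmed reads with Trimmomatic 0.36, mapped them to GRCm38 with STAR 2.5.3a and counted them per Ensembl gene with HTSeq 0.9.1. The labels and the methods name different library kits. The deposited values are a signal, CP20M, that is counts scaled by the authors to 20000000 reads per library, rounded up and, as the values show, not divided by gene length.

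Whole reads were recovered by fitting 1 step per library with the rounding up included, since the rounded values are not plain multiples of a step. In 40 libraries at least 99.6% of values above 0 equalled a whole number of steps rounded up, with no other tolerance. The other 3 had steps under 1 CP20M, where this check says nothing. No pair of replicates was alike within sampling noise (51 pairs). limma 3.58.1 (R 4.3.3) with a trended variance was fitted to log2(CP20M + 20) for genes with at least 200 CP20M in at least 2 libraries (11562 in organoids, 11032 in fibroblasts), over all 24 organoid and all 19 fibroblast libraries separately. Members below that level were compared over lines by exact permutation tests (SciPy 1.17.1). Alternatives were edgeR 4.0.16 (quasi-likelihood), other pseudocounts, no level needed, TMM scaling, the line as a block, and leaving out each line, the 5-FU libraries or the shallow library. The fits were tested on simulated data.

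Lines recur under each treatment and each organoid line came from its own mouse (fibroblast lines M1(2) and M11 have no entry in the study's list of lines), so the line pairs the libraries. Deviations from group means correlated by 0.50 on average within organoid lines (−0.25 between lines) and by 0.72 within fibroblast lines (−0.23 between lines). The negative values between lines follow largely from centring on group means and are no separate contrast. The title of 1 fibroblast R4A1 library lacks its line, which was taken from the library name.

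Members, gene lists and tests were chosen with earlier results of these data known. The genes named are the 10 members, up to 4 called genes with the largest change per list and comparison, and the 2 genes most like each member tested. An item that this rule names is not reported here.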

Additional observations from a re-analysis of the deposited data

Results flagged for a closer look

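In the fibroblast groups of 4 lines, 4 of 24 combinations of member and group had 1 line far from the other lines. The criterion was Dixon's at the 95% level, which chance alone passes in about 1 in 20 groups. The same 4 lines recur in these groups, so the combinations are not independent, and the Cyp1a1 flags are 1 line seen repeatedly. Abcg2 under R4 was lowest in line M11 at 837 CP20M, with a gap of 0.876 of the group's range to the next line. Cyp1a1 was highest in line M3(2) under vehicle at 174 CP20M (0.887 of the range), under A1 at 223 CP20M (0.842) and under R4A1 at 121 CP20M (0.879). The summed endothelial markers of M3(2) were 9596, 6576 and 16663 CP20M in these libraries, above the other lines in each group, and their part in the Cyp1a1 level was not tested.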

How the results depend on the processing

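Of the alternatives that keep all lines, 392 member values kept direction and side of the threshold, 13 came to pass and 1 no longer passed (Cyp2c55 under regorafenib over both genotypes with edgeR, −1.86). The cause was not tested. Akr1c19 under regorafenib kept its call under each alternative in each genotype. Of the list genes' values, 742 kept their side of the threshold and 56 no longer passed under these alternatives, and 341 and 196 when a line was left out, so single calls of list genes rest on few lines.

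The number of genes called for genotype, 238, became 144 with no level needed, 374 with edgeR, 157 without the 5-FU libraries and 785 without the shallow library. For regorafenib in tumoroids, 900 became 1422 with the line as a block, 1441 without the shallow library and 1882 with both. For the difference between genotypes, 0 became 7 with the block, 1 without the 5-FU libraries and 14 without the shallow library and with the block. For R8 against R4, 98 became 52 with no level needed, 150 with TMM scaling, 167 with edgeR, 387 with the block, 51 without the 5-FU libraries, 169 without the shallow library and 397 with both of the last changes to block and library. For 5-FU, 272 became 139 with no level needed, 427 with edgeR, 584 with the block, 493 without the shallow library and 810 with both. For fibroblasts the block gave 796 genes under R4, 1519 under R10 and 771 under R4A1. Leaving out the shallow library together with the line block was chosen after seeing the data. It called 4 members under regorafenib over both genotypes (Abcg2 1.08, adjusted p = 0.000429, and Nr1i2 besides Akr1c19 and Cyp2c55), 4 in colonoids (Abcg2 1.5, adjusted p = 0.00104, and Abcb1a −1.20, adjusted p = 0.0265, besides the same pair) and 1 under 5-FU (Abcb1b). Abcg2 entered the regorafenib tests only through regorafenib-treated libraries and Cyp2c55 only through vehicle colonoid libraries, so their directions were built in. The block called 2 members in fibroblasts under R10. Beyond the calls named here and in the results, the line block changed no call of a member value.

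Leaving out 1 line at a time, the members called ranged from 0 to 4 for genotype, 1 to 2 for regorafenib over both genotypes and in colonoids, 1 to 1 in tumoroids and 0 to 1 for the difference between genotypes. The genes called ranged from 15 to 360 for genotype, 1497 to 1888 over both genotypes, 1069 to 1679 in colonoids, 220 to 1387 in tumoroids, 0 to 7 for the difference, 4 to 89 for R8 against R4, 26 to 254 for 5-FU, 28 to 317 for fibroblasts under R4, 358 to 1118 under R10 and 32 to 359 under R4A1. Some log2 differences that had not passed turned sign without 1 line: Abcc3 by genotype ranged from −0.35 to 0.16 (without M1), Abcb1b in colonoids from −0.20 (without M40) to 0.61, Abcb1a in tumoroids from −0.14 (without M3) to 1.13, Abcg2 in fibroblasts from −0.087 to 0.027 (without M3, and 0.0050 without M3(2)) under R4 and from −0.127 to 0.012 (without M3) under A1, Abcc2 under regorafenib from −0.071 (without M41) to 0.13, and Cyp3a13 from −0.16 (without F11) to 0.23, with −0.010 without M1 and −0.026 without M14. Cyp1a1 over the 6 organoid lines ranged from 0.45 to 0.90.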
